A study of Mus musculus with 4 samples.

Results

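The genes described here are the killing genes of cytotoxic lymphocytes, namely the granzymes Gzma, Gzmb, Gzmk, Gzmm and Gzmc, the pore-forming protein Prf1, the granule proteins Nkg7 and Srgn, and the death ligand Fasl. They were chosen by symbol, and all 9 were found once each among the 32285 genes of the files. They were followed in 6259 of 31290 liver cells, in 5 lymphocyte classes set by the UMIs of marker genes outside this list. A UMI (unique molecular identifier) stands for 1 captured transcript molecule. The cells came from livers of male C57BL/6J mice that were perfused and digested, cleared of red and dead cells, and run on a 10x Genomics workflow that tags transcripts at the 3′ end. There was 1 library from normal chow (NCD) and 2 libraries from a high-fat diet (HFD), with distilled water by gavage in both groups. There was also 1 library from a high-fat diet followed by gavage of Jiangtang Qingre Formula, a preparation of several herbs (JQF). The labels give the same numbers as n for the liver tissues of each group. NCD and JQF therefore had no replicate, so the p-values of the group comparisons and interactions rest on the spread between the HFD pair and assume that the single libraries vary alike, while those of the class comparisons rest on the spread of the class differences over the 4 libraries.

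Cytotoxic lymphocytes kill infected, transformed or stressed cells by releasing lytic granules into the contact zone. Perforin opens the target membrane so that granzymes, which are serine proteases, can enter and start cell death, while the proteoglycan serglycin, encoded by Srgn, packs the granule contents and Nkg7 takes part in granule release. Fas ligand, encoded by Fasl, kills without granules by binding the Fas receptor on the target. In the liver this equipment is carried by CD8 T cells, circulating natural killer (NK) cells, resident type 1 innate lymphoid cells (ILC1), and the unconventional T cells known as invariant natural killer T (iNKT) and gamma-delta T cells. Granzyme B cleaves after aspartate and activates caspases. Granzymes A and K cleave after basic residues, granzyme M after methionine or leucine, and granzyme C is a rodent granzyme whose gene lies beside Gzmb.

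All positions are those of GRCm38 in GENCODE M21. Gzma (chr13:113093825-113100981) and Gzmk (chr13:113171608-113225908) are neighbours on the minus strand of chromosome 13, and the Gzmk span holds Esm1 on the opposite strand. Gzmb (chr14:56258838-56262260) and Gzmc (chr14:56231441-56234656) are both on the minus strand of chromosome 14. Gzmm (chr10:79689020-79695261), Prf1 (chr10:61297833-61304680) and Srgn (chr10:62493833-62527451) are on chromosome 10, Nkg7 (chr7:43437073-43438249) is on chromosome 7, and Fasl (chr1:161780689-161788495) is on chromosome 1. Of the 451 stretches of 50 bases in the last 500 bases of each gene, where these libraries read, 0 were shared with another gene for any of the 9, so reads of the related granzymes were separable at their 3′ ends.

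The 250 bases before the RefSeq start (GRCm38.p6) are shown for 4 granzymes whose levels the results turn on, because Gzmb and Gzmc, which are neighbours, moved in opposite directions in ILC1-like cells with the diet, Gzma and Gzmb rose together there in JQF, and Gzmk rose in CD8 T cells with the diet. Capitals mark matches to the Runx motif TGTGGT, the AP-1 motif TGANTCA or the T-box motif TCACACC on either strand.
Gzma: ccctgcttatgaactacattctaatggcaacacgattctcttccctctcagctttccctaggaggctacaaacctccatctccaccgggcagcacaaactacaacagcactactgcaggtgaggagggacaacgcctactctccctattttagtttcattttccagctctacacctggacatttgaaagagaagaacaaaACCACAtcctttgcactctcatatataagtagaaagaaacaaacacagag
Gzmb: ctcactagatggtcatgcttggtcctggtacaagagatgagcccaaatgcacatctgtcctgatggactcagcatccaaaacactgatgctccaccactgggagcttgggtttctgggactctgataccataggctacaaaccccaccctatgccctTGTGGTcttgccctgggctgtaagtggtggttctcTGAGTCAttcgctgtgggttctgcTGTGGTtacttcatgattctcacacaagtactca
Gzmc: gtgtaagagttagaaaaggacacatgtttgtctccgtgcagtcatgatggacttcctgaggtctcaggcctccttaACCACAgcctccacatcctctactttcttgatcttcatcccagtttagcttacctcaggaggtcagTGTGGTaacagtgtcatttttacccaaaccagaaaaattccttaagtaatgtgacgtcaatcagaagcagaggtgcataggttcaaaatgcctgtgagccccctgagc
Gzmk: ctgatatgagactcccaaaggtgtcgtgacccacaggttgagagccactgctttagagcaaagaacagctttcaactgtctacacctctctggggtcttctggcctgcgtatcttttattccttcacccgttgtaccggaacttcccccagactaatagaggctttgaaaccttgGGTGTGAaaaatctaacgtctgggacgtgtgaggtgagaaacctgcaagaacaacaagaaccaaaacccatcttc
The windows are chr13:113100982-113101231 for Gzma, chr14:56262335-56262584 for Gzmb, chr14:56234658-56234907 for Gzmc and chr13:113180966-113181215 for Gzmk, all on the minus strand. RefSeq and GENCODE differ in where some of the genes start. The Gzmk window lies inside the GENCODE span of Gzmk, and the Gzmb window does not adjoin that of Gzmb. For 7 of the 11 RefSeq windows of the 9 genes, the first bases after the start were found near the start of a GENCODE transcript. The Gzmb window held 2 Runx matches and 1 AP-1 match, the Gzmc window 2 Runx matches, the Gzma window 1 Runx match and the Gzmk window 1 T-box match. The Runx motif occurred in 7 of the 11 RefSeq windows of the 9 genes and in 14.0% of all 32851 windows of this length, the T-box motif in 3 and in 3.33%, the AP-1 motif in 1 and in 6.75%, and the STAT motif TTCNNNGAA, which is its own reverse complement, in 2 and in 7.02%. A match of this kind is a description of letters and not evidence of a bound site.

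Barcodes were kept when they had 500 or more genes with a UMI and no more than 20% of UMIs from mitochondrial genes, which left between 5975 and 10259 cells per library, with median UMIs per cell of 13081 in NCD and 7608 to 8884 in the others. CD8 T cells had at least 2 UMIs of Cd3d, Cd3e and Cd3g together and 2 of Cd8a and Cd8b1, with no Cd4, Trdc or Zbtb16. iNKT-like cells were Cd3-positive with Zbtb16 and no Trdc, Cd8a or Cd8b1. Gamma-delta T cells were Cd3-positive with at least 2 Trdc UMIs and no Cd8b1 or Cd4. NK and ILC1-like cells had no Cd3 and at least 2 UMIs of Ncr1 and Klrb1c. NK cells had Eomes or Itga2 and no Cxcr6 or Itga1, and ILC1-like cells had Cxcr6 or Itga1 and no Eomes or Itga2. Cells of all 5 classes had no Cd79a or Csf1r. There were 2986 CD8 T cells, 2421 iNKT-like cells, 270 gamma-delta T cells, 312 NK cells and 270 ILC1-like cells. The NCD library held 8 NK cells, 14 gamma-delta T cells and 30 ILC1-like cells, against at least 41 of each in every other library. Of markers outside the gates, Klra8, an NK receptor, was found in 37.5% to 52.8% of NK cells and at most 2.78% of ILC1-like cells. The ILC1 marker Il7r was found in 59.7% (JQF) to 90.6% (HFD replicate 1) of ILC1-like cells. It did not set them apart from iNKT-like cells (65.2% to 85.6%) or gamma-delta T cells (86.8% to 92.9%). Inpp4b, another ILC1 marker, was also found in 83.7% to 92.5% of CD8 T cells. Cd200r1 was found in 56.7% to 82.7% of ILC1-like cells and at most 36.0% of the cells of any other class. Among T cell markers, Cd5 was at 0 in NK cells, but Trac was found in up to 10.4% of them (JQF), Trbc2 in 40.0% to 62.5% and Lck in 68.2% to 78.0%. In ILC1-like cells Cd5 was found in up to 3.33% (NCD), Trac in up to 13.3% (NCD), Trbc2 in 60.0% to 75.6% and Lck in 70.1% to 80.0%. The gamma-delta marker Tcrg-C4 was found in 52.8% to 75.6% of ILC1-like cells, against 51.1% to 64.3% of gamma-delta T cells. Tcrg-C1 was found in at most 7.32% of ILC1-like cells. Traj18, a segment of the invariant receptor, was seen in only 7.88% to 28.1% of iNKT-like cells.

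RNA of other cells moved with the groups. The summed level of 2 endothelial genes, Stab2 and Clec4g, was 646 CPM in NCD CD8 T cells and 0.529 to 15.4 CPM in the other libraries, where CPM is the count of a gene's UMIs scaled to 1000000 UMIs of the class in that library. The summed level of 3 myeloid genes, Lyz2, C1qa and Cd74, was 106 CPM in NCD ILC1-like cells and 532 to 1582 CPM in the others, 15.5 against 201 to 358 CPM in CD8 T cells, 15.3 against 425, 599 and 993 CPM in iNKT-like cells and 12.4 against 323 to 653 CPM in NK cells, but 2072 against 75.4 to 286 CPM in gamma-delta T cells. In ILC1-like cells most of this signal was Cd74, which is not limited to myeloid cells, while Lyz2 was at 0, 18.9, 57.5 and 86.8 CPM and C1qa at 3.03, 3.6, 25.2 and 6.95 CPM in NCD, HFD replicate 1, HFD replicate 2 and JQF. The killing genes other than Srgn stayed at or below 19.4 CPM in B cells, endothelial cells, macrophages, monocytes, neutrophils and dendritic cells of every library, and at 2000 UMIs per cell at most 1.1% of B cells and 1.09% of endothelial cells had a UMI of any of them. Srgn was found in every cell type and reached 6360 to 7880 CPM in neutrophils. The part of this shared RNA in the differences below was not tested.

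The order of the classes differed between killing genes, except that Gzma and Prf1 had the same order of median levels. Levels are given as CPM in the order NCD, HFD replicate 1, HFD replicate 2 and JQF. Because genes may be captured unequally, a level of 1 gene is not set against that of another. Gzma was at 3026, 3257, 4092 and 3783 CPM in NK cells and at 1258, 348, 1378 and 401 CPM in CD8 T cells, so that the NK cells of every library stood above the CD8 T cells of every library. The ranges of Gzma in CD8 T cells, ILC1-like cells (46 to 1181 CPM), gamma-delta T cells (5.8 to 181 CPM) and iNKT-like cells (10.5 to 36.2 CPM) overlapped from one class to the next. Gzmb was at 282 to 586 CPM in CD8 T cells, 388 to 670 CPM in NK cells and 79.3 to 978 CPM in ILC1-like cells, ranges that overlap. These 3 classes had higher medians than gamma-delta T cells (17.4 to 222 CPM) and iNKT-like cells (65.4 to 117 CPM), and neither NK nor CD8 T cells overlapped with these. Among the 5 classes Gzmk was highest in CD8 T cells, at 103, 270, 339 and 69.2 CPM, against 4.75 to 10.8 CPM in iNKT-like cells, 0 to 5.97 CPM in NK cells and 0 CPM in ILC1-like cells of all 4 libraries. With 3 UMIs as the floor, the 0 in ILC1-like cells allows up to 10.8 CPM in the shallowest library. Conventional CD4 T cells, outside the 5 classes, had 180, 43.9, 41.7 and 28.6 CPM of Gzmk, above CD8 T cells in NCD and below them in the other libraries.

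Gzmc was highest in ILC1-like cells, at 39.3, 161, 320 and 342 CPM, and did not exceed 13.1 CPM in any other of the 5 classes. Gzmm stayed at or below 32.2 CPM in the 5 classes, and its ranges overlapped from one class to the next. Prf1 was at 707, 446, 587 and 671 CPM in NK cells, above CD8 T cells (84.6 to 221 CPM) and ILC1-like cells (82.9 to 178 CPM), which overlapped with each other and stood above gamma-delta T cells (23.2 to 45.7 CPM) and iNKT-like cells (17.8 to 43.3 CPM). Nkg7 was at 992 to 2325 CPM in CD8 T cells and 1178 to 1726 CPM in NK cells, and ILC1-like cells (708 to 1131 CPM) lay below NK cells but overlapped with CD8 T cells. Nkg7 was at 289 to 724 CPM in iNKT-like cells and 201 to 557 CPM in gamma-delta T cells. Fasl did not separate CD8 T, NK, iNKT-like and ILC1-like cells, which lay between 65.7 and 263 CPM, whereas gamma-delta T cells had 43.5 to 56.8 CPM. Srgn was at 1603 to 3449 CPM in ILC1-like cells, above CD8 T cells (982 to 1398 CPM) and NK cells (1092 to 1496 CPM), while iNKT-like cells (1156 to 2043 CPM) overlapped with all of them.

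**Figure D1:**
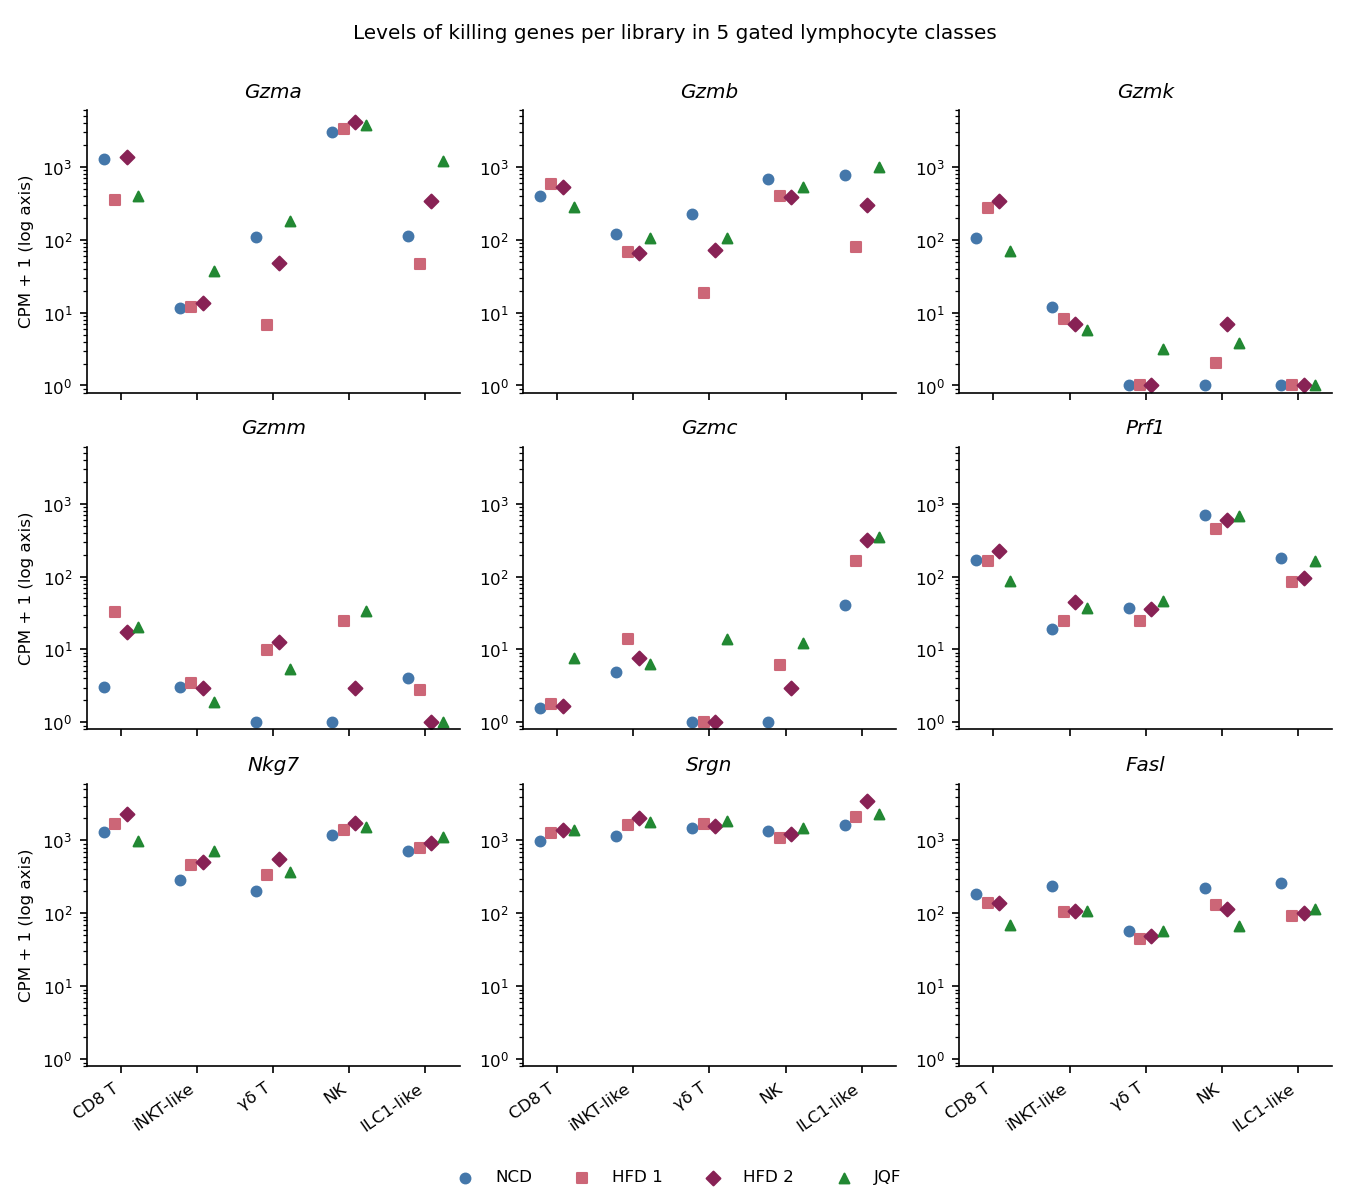
Level of each of the 9 killing genes (CPM + 1, log axis) in the 5 gated lymphocyte classes, with 1 point per library (NCD, HFD 1, HFD 2, JQF) and no error bars, since each point is a sum over the cells of 1 library. Gzma and Prf1 are highest in NK cells, Gzmk in CD8 T cells and Gzmc in ILC1-like cells in every library, and the Gzma points of the HFD pair lie apart in CD8 T and ILC1-like cells.

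The class differences were tested with edgeR's quasi-likelihood test on UMIs summed per library and class, with the library as a block, and Benjamini-Hochberg adjustment over all genes at 0.05. The 3 classes with at least 20 cells in every library, CD8 T, iNKT-like and ILC1-like cells, entered the main test. Against the mean of the other 2 classes, CD8 T cells were called different in 6 of the 8 killing genes tested, where 13.9% of all genes were called. Gzma was higher by 3.80 on the log2 scale (SE 0.56, adjusted p = 0.000902), Prf1 by 1.32 (SE 0.27, adjusted p = 0.0078) and Nkg7 by 1.26 (SE 0.20, adjusted p = 0.00163), Gzmk was higher, Srgn was lower by a log2 fold change of -0.65 and Gzmc by one of -4.25. The adjusted p of Prf1 was 0.0745 without HFD replicate 1 and 0.051 without HFD replicate 2. The SE was taken from the test's F statistic, as the size of the log2 fold change over the root of F.

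iNKT-like cells were called lower in 4 of 8, where 8.63% of all genes were called, with log2 fold changes of -4.99 for Gzma (SE 0.69, adjusted p = 0.00109), -2.46 for Gzmb (SE 0.52, adjusted p = 0.0123), -2.24 for Prf1 and -1.29 for Nkg7. Without HFD replicate 2 the adjusted p of Gzmb was 0.0731. ILC1-like cells were called in 3 of 8, where 10.5% of all genes were called, with Gzmc higher by 5.78 (SE 0.48, adjusted p = 1.56e-05), Srgn higher by 0.70 (SE 0.09, adjusted p = 0.00048) and Gzmk lower. Gzmk was at 0 in ILC1-like cells and passed the expression filter through the other classes, so its call only restates that 0.

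NK and gamma-delta T cells were too few in NCD for the main test and were added, after the cell counts were seen, in a fit of all 5 classes. NK cells were called in 6 of 9 killing genes, where 12.5% of all genes were called. Gzma was higher by 4.84 on the log2 scale (SE 0.41, adjusted p = 1.34e-07 in edgeR's quasi-likelihood test), Prf1 by 3.01 (SE 0.20, adjusted p = 4.95e-09) and Nkg7 by 0.95 (SE 0.16, adjusted p = 0.000397), and these 3 calls held in each of the 9 alternatives run. The calls of Gzmb (1.15, adjusted p = 0.0477), Gzmm (2.06, adjusted p = 0.0261) and Srgn (-0.49, adjusted p = 0.00798) were each lost when single libraries were left out, with adjusted p of 0.0536 to 0.191 for Gzmb without any 1 of the 4 libraries, 0.217 and 0.5 for Gzmm without HFD replicate 1 and without JQF, and 0.14 and 0.057 for Srgn without HFD replicate 1 and without HFD replicate 2. Gamma-delta T cells were called lower in 5 of 9, where 7.44% of all genes were called, namely Fasl (-1.17), Nkg7 (-1.48), Prf1 (-1.905), Gzma (-2.33) and Gzmb (-1.82). The adjusted p of Gzma was 0.0913 and 0.161 without HFD replicate 1 and without HFD replicate 2, and that of Gzmb was 0.135 and 0.0776 without HFD replicate 2 and without JQF.

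In CD8 T cells the diet comparison turned on Gzmk and Gzmm. Gzmk, at 103 CPM in NCD, was at 270 and 339 CPM in HFD (mean 304 ± 49.4, SD, n = 2), so the HFD libraries lay above NCD and above JQF (69.2 CPM) without overlap. The fitted change from NCD to HFD was 1.66 on the log2 scale (SE 0.28, adjusted p = 0.0155 in edgeR's quasi-likelihood test with Benjamini-Hochberg adjustment), and the call held in every alternative that allowed a test. Gzmm was at 2.09 CPM in NCD, from 7 UMIs, and at 31.2 and 16.1 CPM in HFD, a change of 3.56 (SE 0.60, adjusted p = 0.0153), and JQF, at 19.4 CPM, stayed within the HFD range. The NCD level was no higher than in NCD endothelial cells (7.72 CPM of Gzmm), macrophages (4.82 CPM) or barcodes with at most 100 UMIs (3.82 CPM), and with thinned cells, where NCD was at 0, the fitted value of 8.10 is no estimate of size. These 2 calls were the only ones among the 9 killing genes, where 9.44% of all genes were called, and the median change was 0.517 over the 9 and 0.068 over all genes.

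Gzmb, at 393 CPM in NCD and 586 and 528 CPM in HFD, changed by 0.59 (SE 0.23, adjusted p = 0.171), and Nkg7, at 1324 CPM and 1678 and 2325 CPM, by 0.69 (SE 0.31, adjusted p = 0.222), so neither was called. Gzma could not be read as a diet difference, because the HFD libraries had 348 and 1378 CPM and thus enclosed both NCD (1258 CPM) and JQF (401 CPM), with a fitted change of -0.43 (SE 0.68, adjusted p = 0.731). Prf1 was at 169 CPM in NCD and 161 and 221 CPM in HFD, and Fasl at 185 CPM and 138 and 138 CPM. In bulk sums such as these, fewer positive cells and less RNA per cell cannot be told apart, so shares of cells are given as well.

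To set shares side by side at 1 depth, each cell was thinned at random to 2000 UMIs. The share of CD8 T cells with a Gzmk UMI was 15.4% in NCD (95% Clopper-Pearson interval 11.0 to 20.8%, n = 227 cells), 38.0% (34.9 to 41.2%) and 41.7% (38.8 to 44.7%) in HFD, and 14.6% (12.0 to 17.5%) in JQF. The intervals, which cover counting error only, put both HFD libraries above both others. A Gzmm UMI was found in 0 of 227 NCD cells, which allows up to 1.61%, and in 5.64%, 2.5% and 2.65% of the cells of HFD replicate 1, HFD replicate 2 and JQF. Gzmb was found in 43.6%, 43.5% and 43.5% of the CD8 T cells of NCD and the HFD pair and in 23.6% of those of JQF (20.4 to 26.9%). For reference, no more than 0.27% of B cells had a Gzmb UMI and 0% had a Gzmk UMI at this depth.

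Between HFD and JQF, CD8 T cells had lower values of most killing genes, none of which passed the adjusted threshold in the main test. The count was 0 of 9 called, where 0.213% of all genes were called, and 6 of the 9, 5 lower and Gzmc higher, had an unadjusted p under 0.05, as did 1338 of all 13611 genes. The median change over the 9 was -0.955 on the log2 scale, beside -0.056 over all genes, and 2 of the 9 lay above 0. Gzmk, at 69.2 CPM in JQF against 270 and 339 CPM, changed by -2.08 on the log2 scale (SE 0.29, adjusted p = 0.0577 in edgeR's quasi-likelihood test). It passed the threshold in 9 of the 13 alternatives, with adjusted p from 1.34e-10 to 0.0862 over the alternatives that gave one, and with DESeq2 it was the 1 member called. The lowest of these came with no filter on low counts, where 649 of all genes were called. Fasl, at 68.5 CPM in JQF against 138 CPM in both HFD libraries, changed by -0.96 on that scale (SE 0.23, adjusted p = 0.21), and Prf1, at 84.6 CPM against 161 and 221 CPM, one of -1.12 (SE 0.30, adjusted p = 0.246). In these genes, and in Gzmb (282 CPM against 586 and 528 CPM, -0.92, adjusted p = 0.232) and Nkg7 (992 CPM against 1678 and 2325 CPM, -0.96, adjusted p = 0.361), the JQF library lay below both HFD libraries.

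The shares of positive cells at 2000 UMIs had the same order. A Prf1 UMI was found in 17.7% of JQF CD8 T cells (14.9 to 20.8%) against 25.3% and 31.6% in HFD, a Fasl UMI in 13.7% (11.2 to 16.5%) against 23.3% and 22.4%, and an Nkg7 UMI in 76.7% (73.4 to 79.9%) against 85.1% and 90.6%. Gzmc went the other way, at 6.62 CPM in JQF against 0.794 and 0.669 CPM in HFD (log2 fold change 3.21, adjusted p = 0.169), but 52.3% of its 44 UMIs in JQF came from 3 cells. Gzma in JQF lay within the HFD range, and Srgn, at 982 CPM in NCD, was at 1260 and 1378 CPM in HFD and 1398 CPM in JQF, just above both (0.14, SE 0.25, adjusted p = 0.921). Il7r, the interleukin 7 receptor of resting and memory T cells, moved with the groups, with a UMI in 34.2%, 38.3%, 27.3% and 69.2% of CD8 T cells (185, 352, 214 and 438 CPM), and its part in these differences was not tested.

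**Figure D2:**
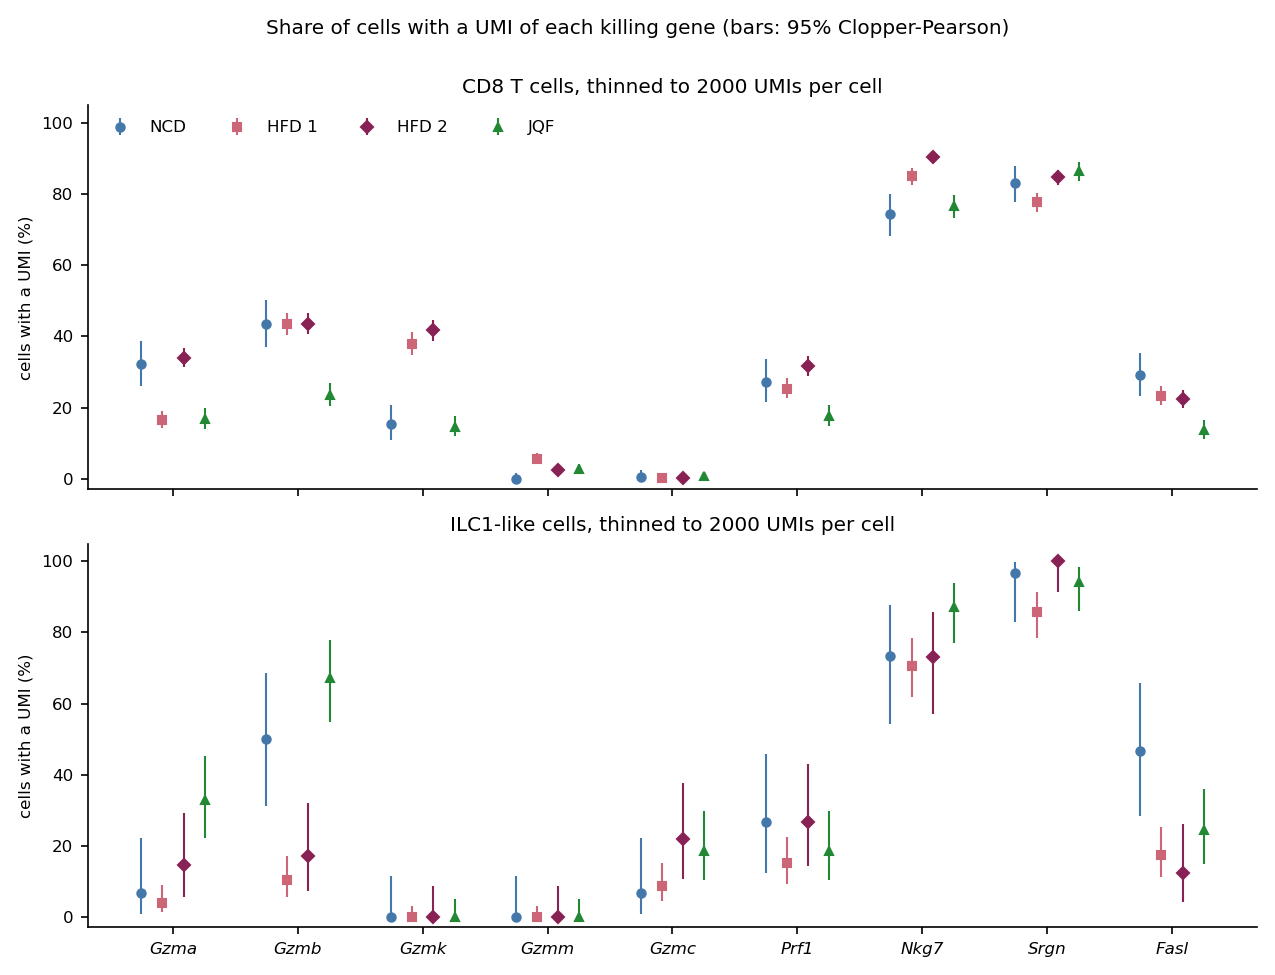
Share of CD8 T cells (upper panel) and ILC1-like cells (lower panel) with at least 1 UMI of each killing gene after thinning every cell to 2000 UMIs, with 1 point per library and bars for the exact 95% Clopper-Pearson interval, which covers counting error only. In CD8 T cells the HFD pair stands above NCD and JQF for Gzmk (38.0% and 41.7% against 15.4% and 14.6%), and in ILC1-like cells the HFD pair stands below both for Gzmb (10.3% and 17.1% against 50% and 67.1%).

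The CD8 T cells were not uniform, and the killing genes divided them in different ways. Cells with a UMI of Pdcd1, the checkpoint receptor PD-1, made up 48.7%, 48.4%, 65.4% and 23.5% of the CD8 T cells in the same library order. Gzmk was 5.58, 3.26, 3.43 and 2.67 times as high in cells with Pdcd1 as in those without, and Gzma 2.8, 2.4, 4.22 and 3.48 times. Gzmm ran opposite, at 0.122, 0.0679 and 0.425 times in HFD replicate 1, HFD replicate 2 and JQF, while NCD had only 1 UMI with Pdcd1 and 6 without. For Gzmb the ratio was 4.91 and 3.58 in the HFD libraries but 1.15 in NCD and 0.999 in JQF, and for Prf1 it was 3.37, 2.32 and 2.14 in NCD and HFD but 1.0 in JQF. These are ratios within 1 library each, without a test, and a Pdcd1 UMI was easier to find in the deeper NCD cells.

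Gzmk was also compared between libraries within each side of this split. Among cells without Pdcd1 it was at 28.9, 131, 128 and 49.7 CPM, and among cells with Pdcd1 at 162, 426, 440 and 132 CPM. On either side both HFD libraries lay above NCD and JQF. Gzmb did not keep its order, at 363, 207, 192 and 282 CPM among cells without Pdcd1 and 417, 1014, 687 and 282 CPM among cells with it. Among cells without Pdcd1, which were 76.5% of the JQF CD8 T cells, both HFD libraries thus lay below NCD and JQF in Gzmb.

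**Figure D3:**
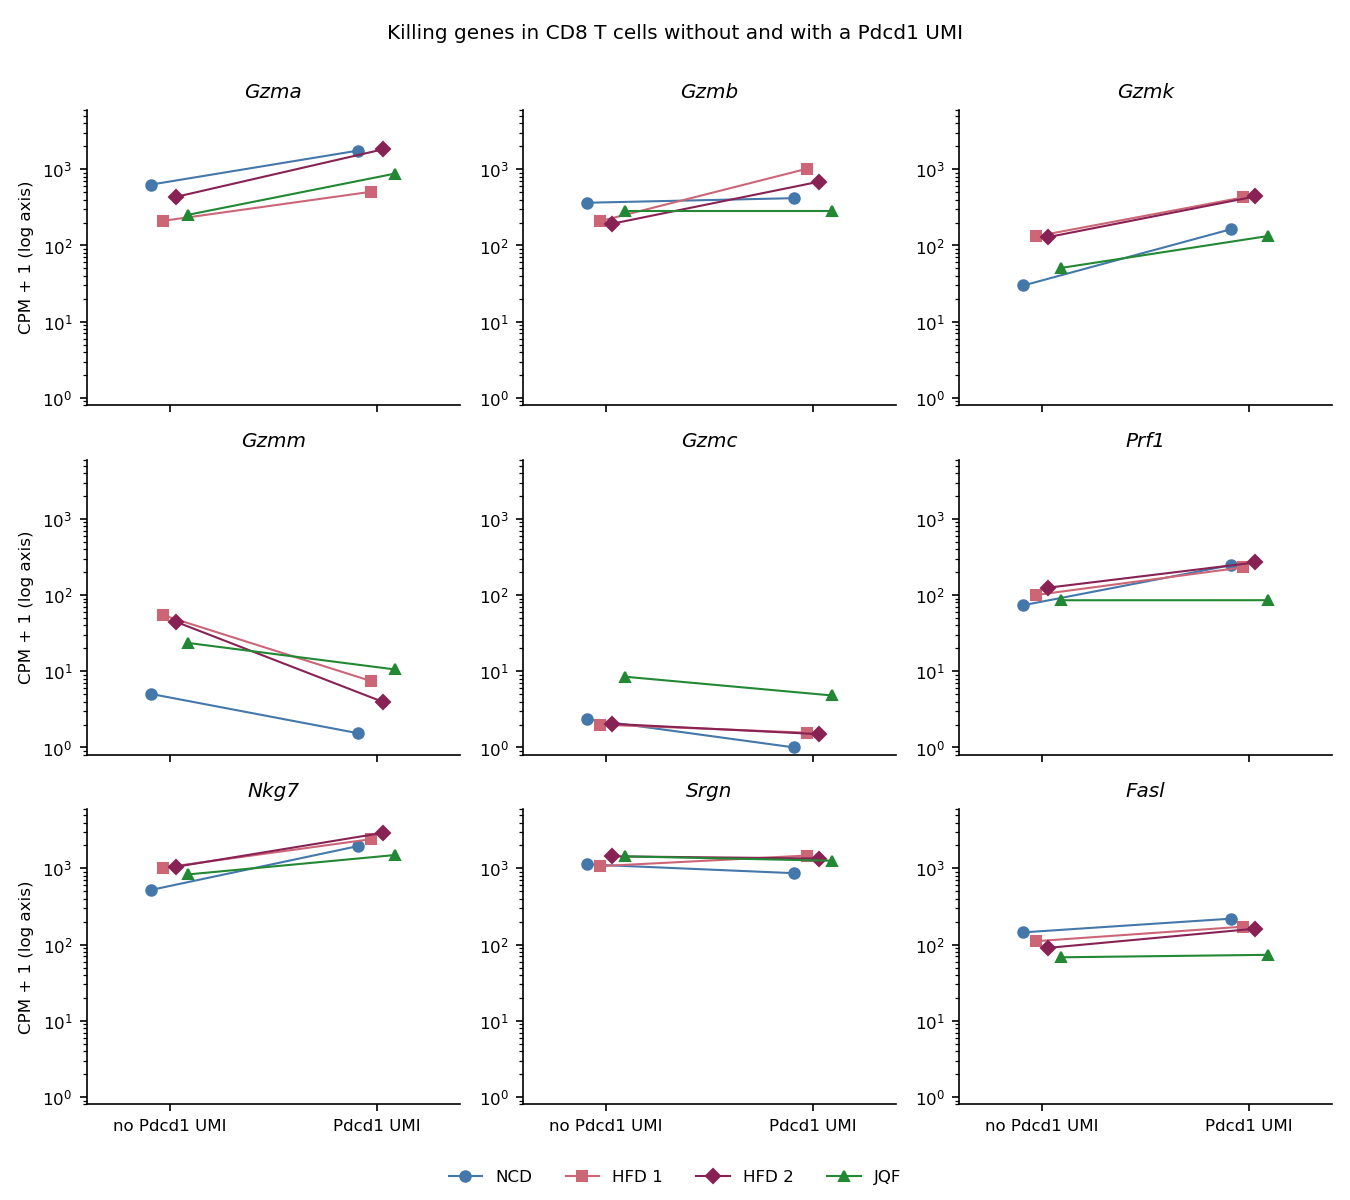
Level of each killing gene (CPM + 1, log axis) in CD8 T cells without and with a Pdcd1 UMI, with 1 line per library joining its 2 sums. Gzmk, Gzma and Nkg7 rise along every line, Gzmm falls along every line (in NCD from 6 UMIs to 1), and for Gzmb the lines of NCD and JQF are nearly flat while those of the HFD pair rise 4.91 and 3.58 times.

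Among CD8 T cells a Gzmb UMI was more frequent in those with a Gzma UMI than in those without. At 2000 UMIs, 74.0%, 73.1%, 55.5% and 50.9% of the Gzma-positive cells had a Gzmb UMI, against 29.2%, 37.6%, 37.3% and 18.1% of the Gzma-negative cells. Cells with none of Gzma, Gzmb and Gzmk made up 43.6% of NCD, 39.9% and 30.7% of HFD and 59.2% of JQF CD8 T cells, and cells with all 3 made up 6.61%, 7.66%, 10.2% and 2.36%. No test was made of these shares, whose cells come from 1 library each.

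In iNKT-like cells the diet comparison called Fasl and Gzmb, both lower. Fasl was at 233 CPM in NCD and 102 and 107 CPM in HFD, with JQF at 107 CPM, so NCD stood alone. The log2 fold change from NCD to HFD was -1.26 (SE 0.16, adjusted p = 0.0242 in edgeR's quasi-likelihood test), and the share of cells with a Fasl UMI at 2000 UMIs was 38.6% in NCD (32.1 to 45.3%) against 14.1% and 16.3% in HFD. Gzmb was at 117 CPM in NCD and 66.9 and 65.4 CPM in HFD, a change of -0.91 on the log2 scale (SE 0.18, adjusted p = 0.0473), and JQF, at 106 CPM, lay near NCD. The count was 2 of 8 called, where 8.59% of all genes were called. The Gzmb call lies near the threshold and was lost in 5 of 12 alternatives, DESeq2 among them (adjusted p = 0.168). The looser gate ended both calls, and with it 0 of all genes were called.

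Nkg7 formed a series in iNKT-like cells, at 289 CPM in NCD, 461 and 504 CPM in HFD and 724 CPM in JQF. The first step was 0.64 on the log2 scale (SE 0.15, adjusted p = 0.0665) and the step from HFD to JQF 0.69 (SE 0.14, adjusted p = 0.454), so neither was called, and the share of positive cells at 2000 UMIs was 39.9%, 54.2%, 58.1% and 71.9%. From HFD to JQF, 0 of 8 killing genes and 0.0% of all genes were called in iNKT-like cells, where 750 genes had an unadjusted p under 0.05, among them Gzma, Nkg7 and Gzmb. The summed myeloid genes of these cells had the same order of libraries as Nkg7, and their part in it was not tested. Gzma was at 10.8 and 12.7 CPM in HFD and 36.2 CPM in JQF (1.74, SE 0.29, adjusted p = 0.329), with 39.0% of its 626 UMIs in JQF from 3 cells. Prf1, at 17.8, 23.7, 43.3 and 36.1 CPM, and Srgn, at 1156, 1608, 2043 and 1814 CPM, did not separate HFD from JQF.

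In ILC1-like cells 4 and 2 killing genes were called in the diet and JQF comparisons, on few cells (30, 127, 41 and 72), while DESeq2 called 1 and 0. The looser gate left 0 and 0, but with it 0 of all genes were called in either comparison, against 1109 and 216 in the main test. Gzmb was at 781 CPM in NCD, 79.3 and 295 CPM in HFD and 978 CPM in JQF, so both HFD libraries lay below both others. The log2 fold change was -2.31 from NCD to HFD (SE 0.36, adjusted p = 3.75e-06 in edgeR's quasi-likelihood test) and 2.64 from HFD to JQF (SE 0.35, adjusted p = 5.45e-07). It was -3.42 without HFD replicate 2 and -1.39 without HFD replicate 1 for the first, and 3.75 and 1.79 for the second. The share of cells with a Gzmb UMI at 2000 UMIs was 50% (31.3 to 68.7%), 10.3% (5.61 to 17.0%), 17.1% (7.15 to 32.1%) and 67.1% (54.9 to 77.9%), and the intervals of NCD and HFD replicate 2 overlapped. Another random thinning of the same cells gave 46.7%, 12.7%, 26.8% and 70.0%, so these shares also depend on the draw.

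Gzma was at 112 CPM in NCD, 46 and 334 CPM in HFD and 1181 CPM in JQF, where the JQF library lay above all others. The log2 fold change from HFD to JQF was 2.94 (SE 0.42, adjusted p = 2.34e-06 in edgeR's quasi-likelihood test), 4.80 without HFD replicate 2 and 1.88 without HFD replicate 1. All 37 NCD UMIs of Gzma in this class came from 3 or fewer cells, as did 92.2% of those in HFD replicate 1, 67.7% in HFD replicate 2 and 38.2% of the 680 UMIs in JQF, and the share of positive cells was 6.67%, 3.97%, 14.6% and 32.9%. In this fit the libraries gave 1 residual degree of freedom and the spread shared over all genes a prior worth 47, while the HFD libraries differed 7.28 times for Gzma and 3.72 times for Gzmb. DESeq2 called neither gene between HFD and JQF (adjusted p = 0.799 for Gzma and 0.664 for Gzmb) nor Gzmb between NCD and HFD (adjusted p = 0.338). The looser gate, with which 0 of all genes were called, ended the same calls.

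Gzmc moved against its neighbour Gzmb in the diet comparison. It was at 39.3 CPM in NCD, from 13 UMIs, and at 161 and 320 CPM in HFD, a change of 2.44 (SE 0.45, adjusted p = 7.47e-05 in edgeR's quasi-likelihood test), which was 1.91 without HFD replicate 2 and 3.03 without HFD replicate 1. JQF, at 342 CPM, was close to HFD replicate 2, and in every library 51.7% to 59.9% of the Gzmc UMIs came from 3 cells. The share of ILC1-like cells with a Gzmc UMI at 2000 UMIs was 6.67% (0.818 to 22.1%), 8.73% (4.44 to 15.1%), 22% (10.6 to 37.6%) and 18.6% (10.3 to 29.7%), with exact 95% binomial intervals that all overlap that of NCD. Fasl fell to 91 and 101 CPM in HFD from 263 CPM in NCD (-1.58, SE 0.31, adjusted p = 0.00019), with JQF at 113 CPM, and Prf1 to 82.9 and 93.5 CPM from 178 CPM (-1.14, SE 0.33, adjusted p = 0.0113), with JQF at 163 CPM. At 2000 UMIs Prf1 was found in 26.7%, 15.1%, 26.8% and 18.6% of the cells, so HFD replicate 2 did not lie below NCD, and the fitted change with thinned cells was -0.34. The Gzmc call was lost with the looser gate (adjusted p = 0.0854). The Fasl call was lost with DESeq2 (adjusted p = 0.124), the looser gate (0.159) and thinned cells (0.124), and the Prf1 call with the looser gate (0.421) and thinned cells (0.785), and DESeq2, which gave no adjusted p for Prf1, called Gzmc alone (adjusted p = 0.0159).

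From NCD to HFD 4 of 7 killing genes were called in ILC1-like cells, where 15.8% of all genes were called (median change 0.176 over the 7 and 0.074 over all genes), and from HFD to JQF 2 of 7, where 3.07% were called (median 0.673 over the 7 and -0.025 over all genes). Prf1 was not called between HFD and JQF (1.01, SE 0.31, adjusted p = 0.0596). Nkg7 was at 708, 789, 924 and 1131 CPM and Srgn at 1603, 2122, 3449 and 2340 CPM, without a call in either comparison. Class markers moved with the groups too. Il7r was at 378, 633, 579 and 299 CPM in ILC1-like cells and Tmem176b at 212, 308, 320 and 139 CPM, both higher in the HFD pair than in NCD and JQF, and their part in the differences above was not tested. In JQF, 21 of the 23 Gzma-positive ILC1-like cells also had a Gzmb UMI at 2000 UMIs (91.3%), against 55.3% of the Gzma-negative cells, and 0 of 13 Gzmc-positive cells had a Gzma UMI, against 40.4% of the Gzmc-negative cells.

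**Figure D4:**
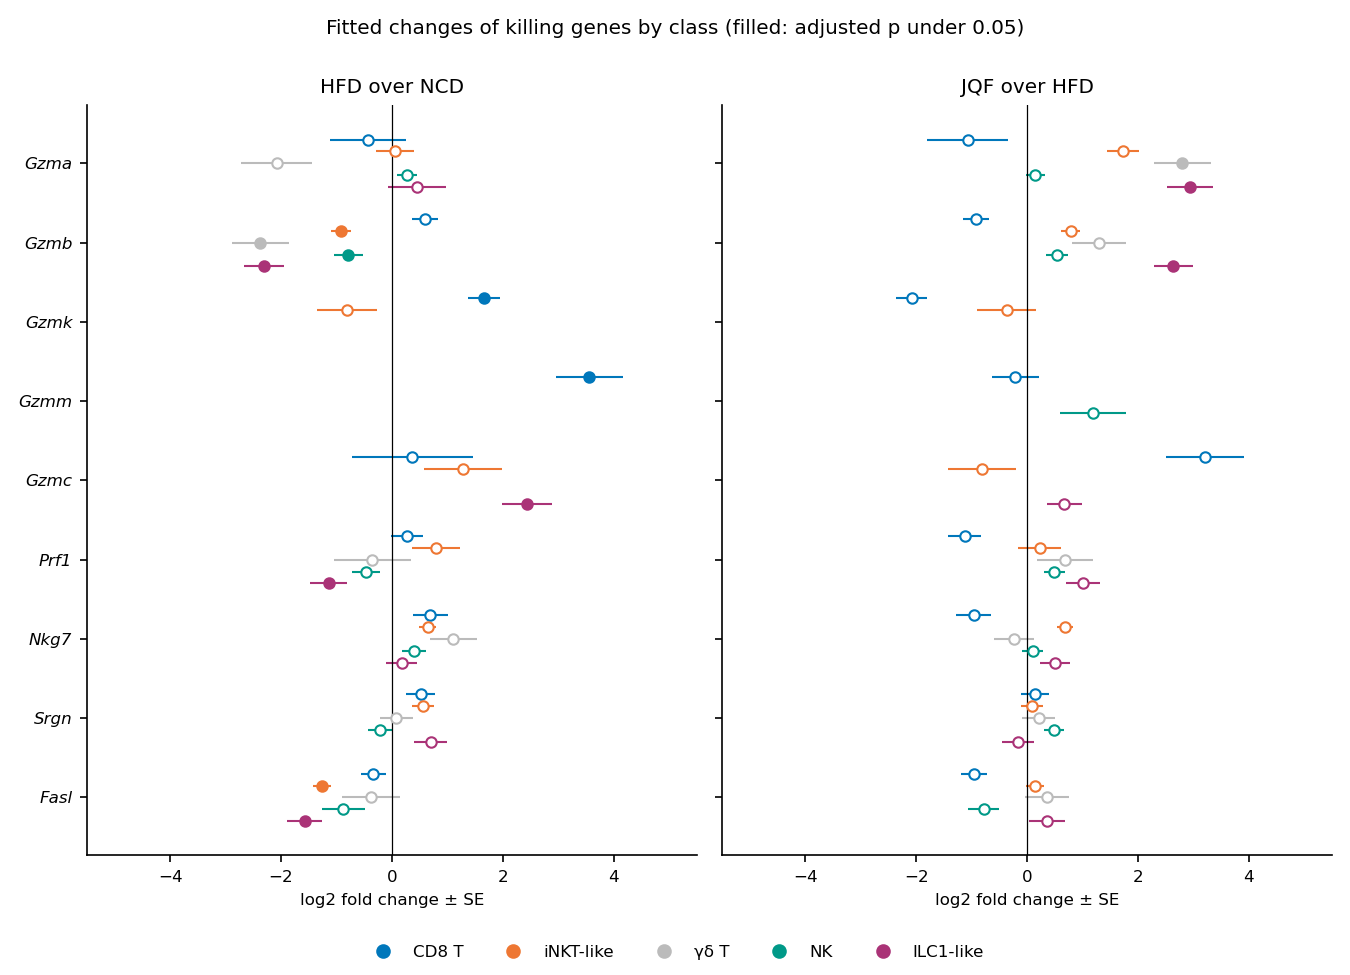
Fitted log2 fold change of each killing gene from NCD to HFD (left) and from HFD to JQF (right) in each class, with SE as bars, filled points for adjusted p under 0.05 in edgeR's quasi-likelihood test, and no point where a gene was not tested or a group was at 0. Gzmb lies above 0 in CD8 T cells and below 0 in the other 4 classes in the left panel, and in the right panel Gzmb lies below 0 in CD8 T cells and above 0 in the other 4.

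In NK cells Gzma, Prf1 and Nkg7 were high in all libraries. The NCD library held 8 NK cells, of which 3 gave 96.3% of the Gzma and of the Gzmb UMIs, so the diet comparison in this class rests on those. Gzmb was at 670 CPM in NCD, 391 and 388 CPM in HFD and 527 CPM in JQF. The log2 fold change from NCD to HFD was -0.79 (SE 0.26, adjusted p = 0.0248 in edgeR's quasi-likelihood test) where the median over all genes was 0.379, and this was the 1 call among 7 killing genes, where 11.1% of all genes were called. It was lost with DESeq2 (adjusted p = 0.36), lost with the stricter gate (0.4), and turned to 1.14 when cells were thinned to 2000 UMIs.

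From HFD to JQF no killing gene was called in NK cells, 0 of 7 where 5.93% of all genes were called, while 5 had an unadjusted p under 0.05, as did 1266 of all 7876 genes. Fasl was called with library totals (adjusted p = 0.0316) and Srgn with the stricter gate (0.0459). Fasl was at 223, 130, 112 and 65.7 CPM, with a log2 fold change from HFD to JQF of -0.78 (SE 0.28, adjusted p = 0.0801). Prf1 had 0.49 (SE 0.20, adjusted p = 0.129), Gzmb 0.54 (SE 0.20, adjusted p = 0.0918) and Gzma 0.15 (SE 0.17, adjusted p = 0.766). At 2000 UMIs a Gzma UMI was found in 71.1%, 84.6% and 85.3% of the NK cells of the HFD pair and JQF, and a Prf1 UMI in 57.9%, 65.4% and 61.1%.

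Gamma-delta T cells had the lowest Fasl of the 5 classes and low Prf1 throughout. In the diet comparison 1 of 6 killing genes was called, where 6.84% of all genes were called. This was Gzmb, at 222 CPM in NCD and 17.4 and 70.8 CPM in HFD (-2.37, SE 0.52, adjusted p = 0.00673 in edgeR's quasi-likelihood test), but its 43 NCD UMIs all came from 3 or fewer of the 14 cells. The value was -3.76 without HFD replicate 2 and -1.61 without HFD replicate 1, and the call was lost with DESeq2 (adjusted p = 0.205). Gzma, from 21 UMIs in NCD and 2 and 16 UMIs in HFD, had a fitted value of -2.07 on the log2 scale (SE 0.64, adjusted p = 0.0582) and was called with library totals (0.0185), doublets removed (0.00255) and the stricter gate (0.00661), so that the count of 1 ran from 0 with DESeq2 or thinned cells to 3 with the stricter gate. From HFD to JQF 1 of 6 was called, where 0.361% of all genes were called. This was Gzma, at 5.8 and 47.2 CPM in HFD and 181 CPM in JQF (2.80, SE 0.52, adjusted p = 0.0194), from 2, 16 and 249 UMIs, and 5.00 without HFD replicate 2 and 1.95 without HFD replicate 1. The Gzma call was lost with thinned cells (adjusted p = 0.973), DESeq2 gave no adjusted p for it, and thinned cells also ended the Gzmb call (0.304).

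Whether a change differed between classes was tested as an interaction. The change in Gzmk from NCD to HFD was larger in CD8 T cells than in iNKT-like cells by 2.42 on the log2 scale (SE 0.44, adjusted p = 0.0484), 1 of 8 killing genes called where 0.848% of all genes were called. The call was lost in 8 of 13 alternatives, among them DESeq2's size factors (adjusted p = 0.0507), and the value became -1.18 with the stricter gate (adjusted p = 0.908). Its iNKT-like side rests on 31, 17 and 9 UMIs, of which 93.5% of those in NCD came from 3 cells. For Nkg7 from HFD to JQF, the change in CD8 T cells minus that in iNKT-like cells was -1.57 (SE 0.21, adjusted p = 0.0149), again 1 of 8, where 0.438% were called. Fitted within each class, the change was -0.96 in CD8 T cells and 0.69 in iNKT-like cells. For Nkg7, JQF lay below both HFD libraries in CD8 T cells and above both in iNKT-like cells. This difference was lost only with the looser gate (adjusted p = 0.289), with which 0 of all genes were called. The opposite directions of Gzmb in CD8 T cells and iNKT-like cells were not called in the main test (adjusted p = 0.462 for the diet and 0.406 for JQF). Both were called in edgeR's quasi-likelihood test with thinned cells (adjusted p = 0.0238 and 0.00368) and with no filter on low counts (2.96e-06 and 1.62e-08). Leaving out the filter also raised the interactions called over all genes, from 93 to 356 for the diet and from 48 to 328 for JQF.

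Between CD8 T cells and NK cells, in the fit of 5 classes, 0 of 9 killing genes were called for the diet, where 0.859% of all genes were called and 0 of the 9 had an unadjusted p under 0.05, and 0 of 9 for JQF, where 0.0932% were called. With JQF 3 of the 9, and 695 of all 9658 genes, had an unadjusted p under 0.05, the lowest of the 3 that of Prf1 (-1.55, SE 0.26, adjusted p = 0.0523), which was called in 4 of 5 alternatives, with adjusted p of 0.0261 with DESeq2, 0.0376 with doublets removed, 0.0451 with the stricter gate and 0.0486 with thinned cells. DESeq2 also called Nkg7 there (adjusted p = 0.0325).

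The mix of granzymes within each class followed these changes. Shares are of the summed UMIs of the 5 granzymes, and since genes may be captured unequally, each share is compared between libraries or classes and not with that of another granzyme. In CD8 T cells Gzma made up 71.6%, 28.2%, 60.9% and 51.5% in the same library order, and Gzmk made up 5.85%, 21.8%, 15.0% and 8.9%, so both HFD libraries lay above NCD and JQF in Gzmk, while their Gzma shares lay far apart. In NK cells Gzma made up 81.9% to 91.1%. In ILC1-like cells Gzmb made up 83.5%, 27.5%, 31.1% and 39.1%, while Gzmc made up 4.21%, 55.9%, 33.7% and 13.7% and Gzma 12.0%, 15.9%, 35.2% and 47.2%. The summed granzyme level of ILC1-like cells was 935, 288, 950 and 2501 CPM, so the share of Gzmb in JQF was taken from the largest total.

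**Figure D5:**
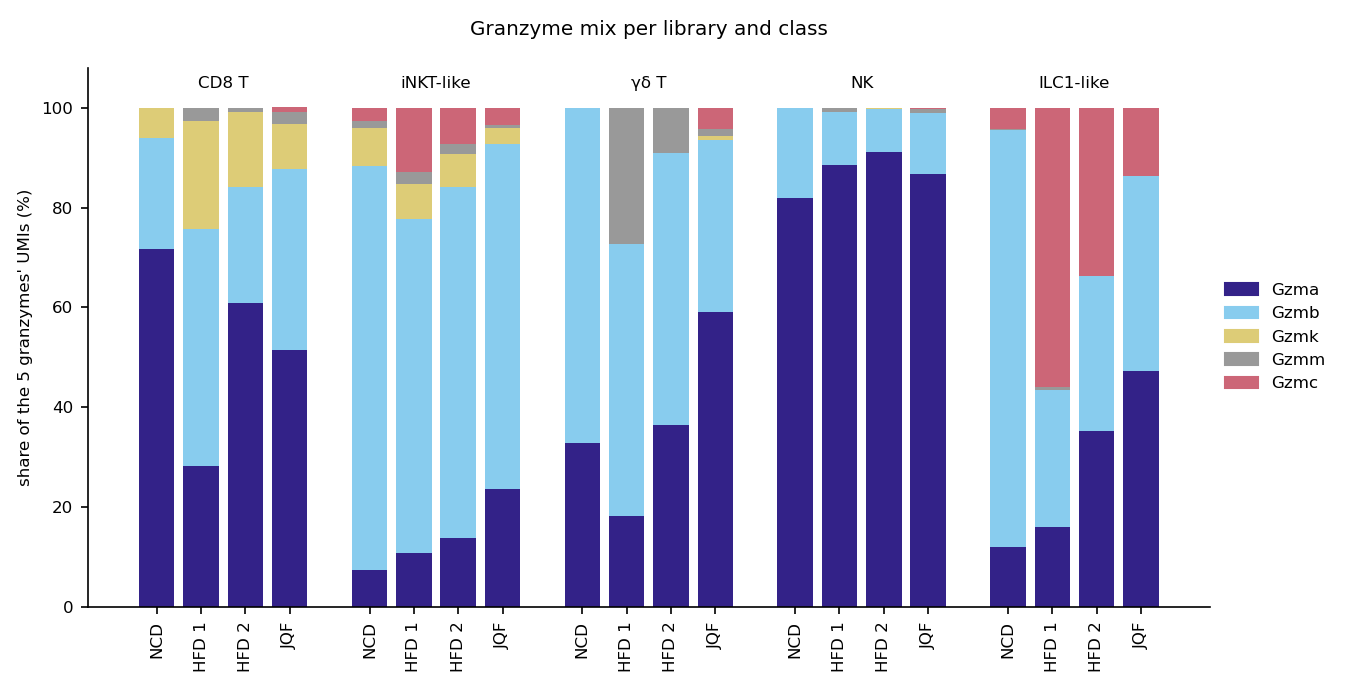
Share of the summed UMIs of 5 granzymes taken by each of them, in 1 bar per library for each class. Gzma takes 81.9% to 91.1% in NK cells, above its share in any other class, the Gzmk share is largest in CD8 T cells of the HFD pair (21.8% and 15.0%), and in ILC1-like cells Gzmc takes 55.9% and 33.7% in HFD against 4.21% in NCD.

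The other genes of the killing pathway were followed as a list of 54, which holds further granzymes and granzyme processing, granzyme inhibitors, granule formation and release, death receptors and their signalling, and regulators of the programme. In CD8 T cells 4 of the 48 tested rose and 5 fell from NCD to HFD, with Cd63 (4.50), the granule membrane protein, Ctsh (2.58) and the caspase substrate Bid (1.90) higher and Lamp2 (-2.14) lower, where 9.44% of all genes were called, and the median over the tested list was 0.097 beside 0.068 over all genes. In iNKT-like cells 6 of 48 rose and 7 fell (8.59% of all genes called, medians 0.122 and 0.087), with Ctsh at 3.34, Id2 at 1.54, Lamp2 at -2.16 and Il12rb2 at -1.84. In ILC1-like cells 2 of 45 rose and 10 fell (15.8% of all genes called, medians 0.2 and 0.074), with Il12rb2 (-2.01), Sytl3 (-1.81), Stat4 (-1.67) and the granzyme B inhibitor Serpinb9 (-1.65) the largest, and in NK cells 3 of 46 rose and 11 fell (11.1% called, medians 0.146 and 0.379). In gamma-delta T cells 3 of 40 rose and 3 fell (6.84% called, medians 0.227 and 0.071).

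Il12rb2, a chain of the receptor for interleukin 12, which induces the killing programme, was singled out after its values were seen because it was called lower in HFD than in NCD in all 5 classes, at -1.43 in CD8 T cells (SE 0.27, adjusted p = 0.0211 in edgeR's quasi-likelihood test), -1.84 in iNKT-like cells, -2.01 in ILC1-like cells, -2.55 in NK cells and -1.82 in gamma-delta T cells. These comparisons share their libraries and thus are not independent of one another. With the looser gate 0 genes were called from NCD to HFD in iNKT-like and in ILC1-like cells, so the Il12rb2 calls were lost there. The NK and gamma-delta calls come from the added fit and rest on 8 and 14 NCD cells. From HFD to JQF it was called higher in CD8 T cells (2.07, adjusted p = 0.049), NK cells (1.10, adjusted p = 1.8e-06) and gamma-delta T cells (1.67, adjusted p = 0.0242), and had 1.05 in iNKT-like cells and 0.86 in ILC1-like cells without a call. In CD8 T cells it was the only one of 48 list genes called between HFD and JQF. In NK cells 6 of 46 list genes rose and 0 fell, led by Ifng (1.97), Stx11 (1.46) and Bhlhe40 (1.35), where 5.93% of all genes were called and 369 of those 467 were higher. In ILC1-like cells 1 of 45, Il18r1 (-1.61), fell, where 3.07% were called. In iNKT-like cells 0 of 48 were called.

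Over the 20 sums of 5 classes and 4 libraries, the genes whose log2(CPM + 1) followed Gzma most closely were Prf1 (Pearson r 0.92), Lrrk1 (0.876) and Plek (0.839), among 6270 genes. Those for Gzmb were Ccl3 (0.884), a chemokine of activated lymphocytes, Mctp2 (0.865) and Dapk2 (0.844), and those for Gzmk were Sh2d2a (0.889), an adaptor of T cell signalling, Atad2 (0.817) and Gm44174 (0.814). Prf1 went with Gzma (0.92), Lrrk1 (0.897) and Chsy1 (0.875). The sums of 1 library share its depth and preparation, and these values are a description only.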

How the data were processed

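Per the labels and the study's methods, the authors aligned reads to mm10 with Cell Ranger (version 6.0.1 in the processing notes, 7.0.0 in the headers of the filtered matrices) and deposited raw counts of UMIs per gene and cell, which were used here without change. Seurat 4.0.3 is also named in the submitters' notes. Cells were filtered and gated as described, and scanpy 1.11.5 served only to predict doublets. Classes were summed per library, and killing genes were tested with edgeR 4.0.16 (TMM, filtered by expression, glmQLFit and glmQLFTest, R 4.3.3) over all genes with Benjamini-Hochberg adjustment. Class UMIs per library ran from 80645 (NK, NCD) to 17276560 (iNKT-like, JQF). Alternatives were DESeq2 1.42.0, its size factors, library totals, no filter on low counts, looser and stricter cell filters and gates, predicted doublets removed, cells thinned to 2000 UMIs and each library left out, and doublets were kept in the main tests. The looser cell filter kept cells with 200 genes and 30% mitochondrial UMIs and the stricter 1000 genes and 10%. Expression tests were also run on simulated counts with the same spread in every library. That run could not check the assumption that the single libraries vary like the HFD pair. All 9 killing genes are named, with at most 4 called genes of the pathway list per comparison and class, those with the largest change. The killing genes, gates and lists were chosen with earlier results of these data known. A further split of the CD8 T cells by marker genes is not reported here.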

Additional observations from a re-analysis of the deposited data

Results flagged for a closer look

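The change in Gzmk from NCD to HFD was larger in CD8 T cells than in iNKT-like cells by 2.42 on the log2 scale, and the change in Nkg7 from HFD to JQF differed between the same classes by -1.57. Both were singled out because the difference between the classes itself passed an adjusted p of 0.05 as an interaction term in edgeR's quasi-likelihood test. Gzmk was at 103 CPM in NCD and 270 and 339 CPM in HFD in CD8 T cells, and at 10.8, 7.07 and 6.0 CPM in iNKT-like cells, there from 31, 17 and 9 UMIs, with 93.5% of the 31 from 3 cells. Nkg7 was at 1678 and 2325 CPM in HFD and 992 CPM in JQF in CD8 T cells, and at 461 and 504 CPM in HFD and 724 CPM in JQF in iNKT-like cells. No group held the 4 samples that the search for outlying samples needs.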

How the results depend on the processing

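No paired analysis was possible because NCD and JQF hold replicate 1 only and share 1 number with HFD. The fits of 5 classes and the omission of NCD from the JQF comparisons were chosen after seeing the data. Of 900 alternative values of log2 fold changes, 762 kept their side of the threshold or their size, 50 lost a call, 58 gained one, 28 moved and 2 reversed; the causes were not tested. In iNKT-like cells from NCD to HFD, Fasl was -1.32 with the looser gate, and Gzmb -0.81 with library totals, -0.99 with DESeq2, -0.90 with the stricter cell filter, -0.33 with the looser gate and -1.12 with the stricter gate. In ILC1-like cells from NCD to HFD, Fasl was -1.59 with DESeq2, -0.997 with the looser gate and -1.26 thinned, Prf1 -0.48 with the looser gate and -0.34 thinned, Gzmc 3.15 with the looser gate and 1.91 to 3.03 with 1 library left out, and Gzmb -2.17 with DESeq2, -1.54 with the looser gate and -3.42 to -1.39 with 1 library left out. From HFD to JQF there, Gzma was 2.71 with DESeq2, 2.52 with the looser gate and 1.88 to 4.80 with 1 library left out, and Gzmb 2.47, 2.29 and 1.79 to 3.75. The Gzmk interaction was 2.42 with DESeq2's size factors, 2.24 with library totals, 2.43 with DESeq2, 2.43 with the stricter cell filter, 2.40 with the looser gate, -1.18 with the stricter gate, 3.17 thinned and 2.41 with 5 classes, and the Nkg7 interaction -1.68 with the looser gate. In NK cells Gzmb reversed to 1.14 thinned.

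Killing genes called from HFD to JQF in CD8 T cells numbered 0, but 7 with no filter and 1 with DESeq2, its size factors, the looser cell filter, either gate, doublets removed, thinned cells or without NCD. The 2 called in iNKT-like cells from NCD to HFD became 4 with no filter, 1 with DESeq2, the stricter cell filter or the stricter gate, and 0 with the looser gate, and the 0 from HFD to JQF became 3 with no filter and 1 with doublets removed. In ILC1-like cells 4 became 1 with DESeq2, 0 with the looser gate and 2 thinned, 2 from HFD to JQF became 0 with DESeq2 or the looser gate, and the 3 against the other classes became 7 with no filter. The 1 interaction for the diet became 0 with DESeq2, its size factors, library totals, the stricter cell filter, either gate or 5 classes, and 2 with no filter. The 1 for JQF became 7 with no filter, 2 with DESeq2, doublets removed or 5 classes, 3 thinned and 0 with the looser gate. Calls over all genes moved too. With no filter they went from 29 to 649 in CD8 T cells for JQF, and from 1034 to 3143 and 0 to 497 in iNKT-like cells. In the interactions they went from 93 to 356 and from 48 to 328. The looser gate called 0 of all genes in the iNKT-like diet comparison, both ILC1-like comparisons and both interactions.

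All genes called ranged over the alternatives from 585 to 2683 (main 1285) and 11 to 649 (29) in CD8 T cells for the diet and JQF, 0 to 3143 (1034) and 0 to 497 (0) in iNKT-like cells, 0 to 1220 (1109) and 0 to 266 (216) in ILC1-like cells, 828 to 2598 (1525), 471 to 1738 (946) and 588 to 2012 (1148) for CD8 T, iNKT-like and ILC1-like cells against the others, and 0 to 356 (93) and 0 to 328 (48) for the interactions. Library totals moved the median of all genes from 0.074 to 0.182 in the diet comparison of ILC1-like cells. Without thinning, Gzmk was found in 49.1%, 67.1%, 69.9% and 35.5% of CD8 T cells, and Gzmb in 76.7%, 22.8% and 34.1% of ILC1-like cells of NCD and HFD. At 1000 UMIs Gzmk was found in 23.6%, 26.1% and 7.34% of HFD and JQF CD8 T cells and Gzmb in 52.8% of JQF ILC1-like cells, or 53.0% at 2000 UMIs with the looser gate.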

Other observations

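CD8 T cells with at least 2 UMIs of Mki67 and Top2a, genes of dividing cells, made up 18.4%, 9.41%, 18.3% and 8.52% of the CD8 T cells of NCD, HFD replicate 1, HFD replicate 2 and JQF, and Gzmb in them was 0.74, 1.7, 2.13 and 0.599 times that of the other CD8 T cells. The cells were not thinned for this, with a median of 12111.5 UMIs in NCD and 6844 to 8142 in the others, and the JQF value rests on 58 cells, 3 of which gave 52.2% of the Gzmb UMIs.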
